A study of Arabidopsis thaliana with 6 samples.

Results

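Asparagine synthetase, asparaginase and glutamate dehydrogenase stand at the point where a leaf cell stores nitrogen in asparagine or releases it again. The 8 Arabidopsis thaliana genes examined here were taken by locus, with earlier results of these data known, and no threshold on a measured value chose them. They are the asparagine synthetase genes ASN1 (AT3G47340), ASN2 (AT5G65010) and ASN3 (AT5G10240), the asparaginase genes ASPGB1 (AT3G16150) and ASPGA1 (AT5G08100), and the glutamate dehydrogenase genes GDH1 (AT5G18170), GDH2 (AT5G07440) and GDH3 (AT3G03910). They are 8 of the 25383 genes to which probes of the array could be assigned. Of their 12 probes, 6 are the only probe of their gene, and ASN1 and GDH2 have 3 each.

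Wild-type plants were grown in 2 atmospheres, and Cy3-labelled copies of the total RNA of their rosettes were hybridised to one-colour Agilent arrays, 3 for each group. Plants of the ambient group grew from stratified seed for 4 weeks in a chamber supplied with ambient air, whose own NO content is not given in the sources used here. Plants of the NO group grew for the same 4 weeks in ambient air to which 3 ppm nitric oxide (NO) was added without interruption. Light (300 µmol per square metre per second), day and night temperature (20 °C and 16 °C) and relative humidity (80%) were the same for both groups, and the study describes 3 independent experiments. The ecotype and the number of plants behind each RNA sample are not given in the labels. By its title the study concerns plants that use NO as a source of nitrogen, and the question here was how transcripts of the asparagine cycle differed between these groups.

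Asparagine synthetases transfer the amide nitrogen of glutamine to aspartate, and the asparagine formed is a nitrogen-rich, carbon-poor compound that plants store and move through the phloem. Asparaginases hydrolyse asparagine to aspartate and ammonium. Glutamate dehydrogenase is a mitochondrial enzyme, found mainly in phloem companion cells, that in leaves mostly deaminates glutamate to 2-oxoglutarate and ammonium. Among the synthetase genes of Arabidopsis, ASN1 is known as a gene induced by darkness and repressed by light and sugar (its other name is DIN6). ASN2, by contrast, is known to be light-induced.

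Values are given as relative signals, the background-corrected signal of a probe as a percentage of the 75th percentile of all gene spots on its array. That percentile lay between 830.1 and 875.9 signal units for the ambient group and between 715.6 and 1320 for the NO group. Between 65.2% and 66.8% of gene spots were well above background in the ambient group and between 68.5% and 72.0% in the NO group, and 0 spots were saturated. All 3 ambient arrays lay on 1 slide and all 3 NO arrays on another, so the slide and the treatment cannot be told apart below. Of 10 spike-in control probes, 8 were brighter on every NO array than on every ambient array, by 54.7 times for the brightest. Of these, 7 were well above background on at least 3 arrays. The remaining probe, at means of 4.68 and 7.57 signal units, was not well above background on any array. The part of the slides in the differences below was not tested. A relative signal compares 1 probe between arrays, and whether the signal of one probe exceeds that of another says nothing about the levels of their genes.

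Of the 8 genes, 3 rose in the NO group (ASN1, ASN2 and GDH1), 4 fell (ASN3, ASPGB1, ASPGA1 and GDH3) and 1 did not pass the test (GDH2), by limma with Benjamini-Hochberg adjustment over 18614 genes and a threshold of 0.05. Over all genes tested, 58.2% passed this test, 25.8% as higher and 32.4% as lower in the NO group. A share of that size means that passing the test does not by itself set these genes apart, and the sizes of the changes are therefore given for each. At 2-fold or more, the share over all genes was 4.98% higher and 2% lower in the NO group. ASN1, ASN2, ASN3 and ASPGB1 lay past 2-fold. ASN2 was at 2.01-fold and fell short of 2-fold under 6 of 16 alternatives (lowest 1.70-fold), among them leaving out ambient array 1, and with normexp only ASN3 and ASPGB1 lay past it. In 7 of the 8 genes the arrays of the groups did not overlap. Over all genes this held for 66.8%, for 29% with the NO arrays higher and for 37.7% with them lower. The median log2 change over the 8 genes was -0.18, beside -0.05 over all genes tested. All 8 genes passed the filter on dim probes, 7 of them on all 6 arrays and ASN1 only through the NO arrays.

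**Figure D1:**
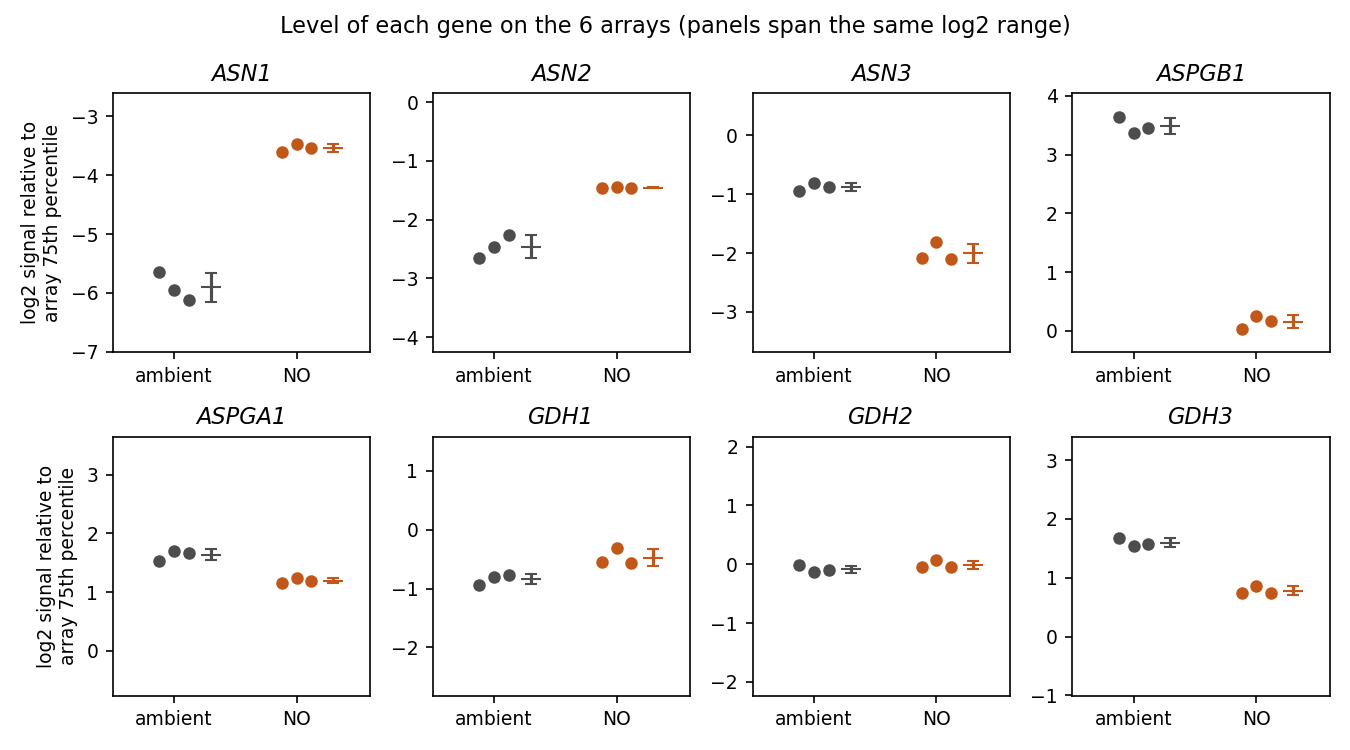
Log2 signal of each of the 8 genes relative to the 75th percentile of its array, 1 panel per gene with the same log2 range, on the 3 ambient and the 3 NO arrays. Points are single arrays and bars give the mean and SD of a group. ASPGB1 falls from a mean of 3.49 to 0.16, ASN1 lies higher on all NO arrays, and only the points of GDH2 overlap between groups.

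The asparagine synthetase genes moved in different directions: ASN1 and ASN2 rose in the NO group and ASN3 fell. ASN1, the dark-inducible synthetase gene, had relative signals of 2.01%, 1.61% and 1.43% on ambient arrays 1 to 3 and of 8.24%, 9.05% and 8.59% on NO arrays 1 to 3. None of its ambient signals was well above background, whereas all 3 of its NO signals were. The dim ambient side leaves the size of the rise uncertain. Set against the lowest signal that counted as well above background on the ambient arrays, ASN1 was 3.98-fold higher in the NO group. This floor-based value is not a strict bound, since a spot above that lowest signal need not count as well above background. On ambient array 1 the lowest such signal was 21.2, and a GDH2 spot at 23.2 did not count. The measured means were 1.68% ± 0.29 (SD, n = 3) and 8.63% ± 0.40 (SD, n = 3). The fitted log2 change between the groups was 2.37 ± 0.12 (SE, limma adjusted p = 1.69e-05). That p belongs to the fitted change and not to the floor-based value, and ASN1 entered the test only through the NO arrays, where it is high. In signal units the ambient values were 11.9 to 17.6, at 2.73 to 3.34 times the scanner's error estimate, and the NO values were 59.0 to 119.5, at 8.62 to 9.65 times that estimate. With normexp background correction, which adds an offset of 50 signal units to every spot, the log2 change of ASN1 was 0.71 (1.63-fold, limma adjusted p = 0.00019). That is below the floor-based value of the main setting.

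ASN1 was the only one of the 8 genes for which separate probes measured separate transcript accessions. The brightest probe and a second probe, spotted in duplicate, were both designed to NM_180333, and neither was well above background on any ambient array. The second probe rose by 2.53 ± 0.16 (SE) on the log2 scale (limma adjusted p = 5e-05 over all probes tested), and its floor-based value was 2.31-fold. The third probe, designed to NM_114602, was well above background on 1 NO array and on 0 ambient arrays, so it was not tested. Averaging the 3 probes gave a log2 change of 1.84 for ASN1 in place of 2.37. Across all probes tested, 53% passed, 25.9% as higher and 27.1% as lower in the NO group.

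**Figure D2:**
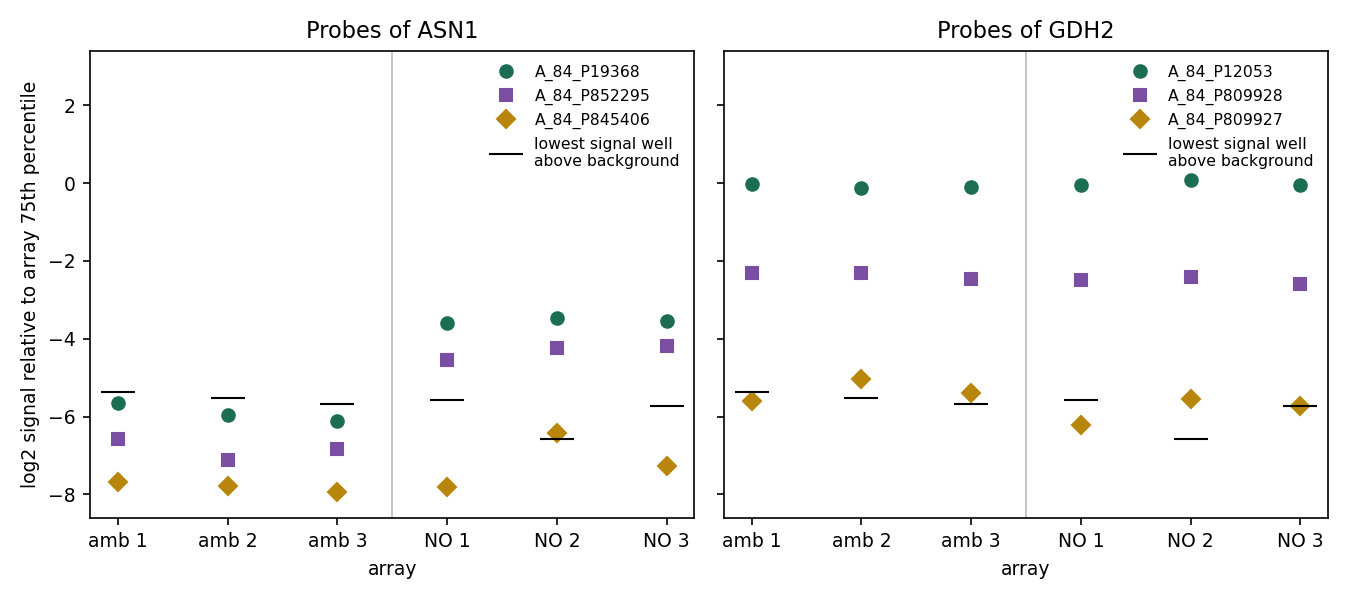
Log2 signal of the 3 probes of ASN1 and the 3 probes of GDH2 relative to the 75th percentile of each of the 6 arrays, with a tick at the lowest signal of any probe that was well above background on that array. A signal above the tick need not carry that mark on every spot. The brighter pair of ASN1 probes lies below the ticks on the ambient arrays and above them on the NO arrays, while the brighter pair of GDH2 probes stays above them throughout.

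ASN2 had relative signals of 15.8%, 18.1% and 20.9% in ambient air and of 36.4%, 36.6% and 36.4% under NO. Every NO array lay above every ambient array, and the NO arrays were close to each other while the ambient arrays were spread more widely. The means were 18.3% ± 2.51 and 36.5% ± 0.13 (SD, n = 3 each). The fitted log2 change was 1.01 ± 0.10 (SE, 95% confidence interval 0.77 to 1.24, limma adjusted p = 0.000235), a 2.01-fold rise. That fold comes from the log2 values, and the ratio of the means above is slightly smaller. ASN3 had relative signals of 52.0%, 56.9% and 54.7% in ambient air and of 23.5%, 28.4% and 23.3% under NO. All 3 NO arrays lay below all 3 ambient arrays. The fall was 2.18-fold (log2 change -1.13 ± 0.09 SE, interval -1.34 to -0.91, limma adjusted p = 9.73e-05).

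The asparaginase genes both fell, ASPGB1 far more than ASPGA1. ASPGB1 encodes the potassium-dependent asparaginase, which is the more active form on asparagine. Its relative signals were 1248%, 1028% and 1095% in ambient air and 103%, 119% and 113% under NO. The lowest ambient array was many times above the highest NO array, and all 6 signals were well above background and at about 10 times the scanner's error estimate. The means were 1124% ± 112.7 and 112% ± 8.33 (SD, n = 3 each), a 10.1-fold fall (log2 change -3.33 ± 0.09 SE, interval -3.55 to -3.11, limma adjusted p = 1.89e-06). By size this was the 9th largest fall among the genes tested. ASPGA1 encodes the potassium-independent enzyme. Its relative signals were 288%, 327% and 317% in ambient air and 222%, 236% and 228% under NO, again without overlap. The fall was 1.36-fold (log2 change -0.44 ± 0.06 SE, interval -0.59 to -0.29, limma adjusted p = 0.0012).

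The glutamate dehydrogenase genes differed from each other: GDH1 rose slightly, GDH2 did not pass the test and GDH3 fell. GDH1, which encodes the beta subunit, had relative signals of 52.2%, 57.4% and 58.3% in ambient air and of 68.3%, 80.8% and 67.6% under NO. The groups did not overlap, and NO array 2 stood above the other two. The rise was 1.29-fold (log2 change 0.36 ± 0.09 SE, interval 0.16 to 0.57, limma adjusted p = 0.0107). GDH2, which encodes the alpha subunit, had relative signals of 98.8%, 91.3% and 93.3% in ambient air and of 96.3%, 105% and 97.3% under NO. Here ambient array 1 lay above NO arrays 1 and 3, so the groups overlapped. The log2 change of GDH2 was 0.08 ± 0.06 (SE), with an interval from -0.06 to 0.22 and an adjusted p of 0.304 in limma, so a rise of up to 1.16-fold or a small fall remains within the error.

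A second probe of GDH2, also well above background on all 6 arrays, had a log2 change of -0.14 ± 0.07 (SE, limma adjusted p = 0.156 over all probes), and its duplicate spots differed by 0.00193 to 0.185 on the log2 scale. The third GDH2 probe had both of its spots well above background on 1 NO array and on 0 ambient arrays, and was not tested. On ambient array 2 and on NO array 3 only 1 of its spots was. Its measured log2 difference was -0.49. The tested probes of GDH2 thus had estimates of opposite sign, neither past the threshold. GDH3, a further subunit gene, had relative signals of 321%, 290% and 298% in ambient air and of 167%, 182% and 166% under NO. The NO arrays were all below the ambient arrays and close to each other. The fall was 1.77-fold (log2 change -0.82 ± 0.06 SE, interval -0.97 to -0.67, limma adjusted p = 8.91e-05).

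**Figure D3:**
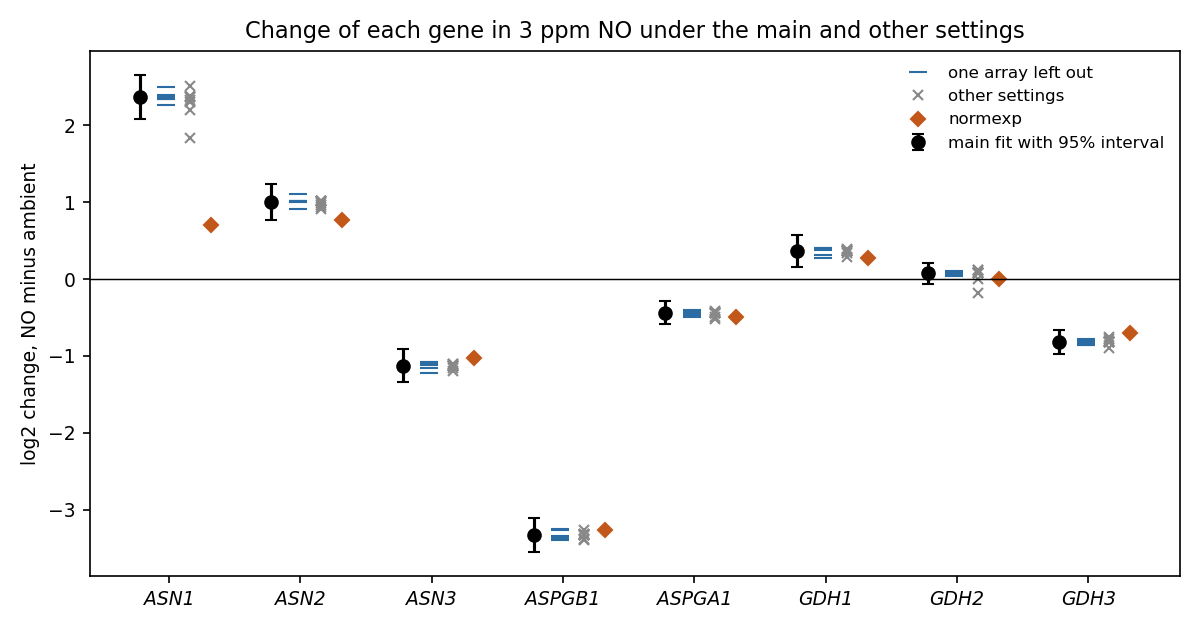
Log2 change (NO minus ambient) of the 8 genes. Black points with bars are the limma values with 95% confidence intervals, blue ticks leave out 1 array each, grey crosses are the other settings and orange diamonds are normexp background correction. ASPGB1 at -3.33 lies farthest below 0, the interval of GDH2 spans 0, and the fitted value of ASN1, 2.37, drops to 0.71 with normexp.

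In RNA from whole rosettes, fewer cells of a type and less RNA per cell cannot be told apart. Markers of leaf cell types were therefore read on the same arrays, where 25.8% of all genes tested rose and 32.4% fell. All 6 phloem markers were well above background, 3 rose and 3 fell (2 rose with 4 of the other scalings). SEOR1 and SEOR2, genes of sieve elements and not of companion cells, rose by 0.73 and 0.48, and AHA3 by 0.23. SUC2, APL and PP2-A1 had changes of -0.17, -0.32 and -0.39. AHA3 kept its call under 5 of 16 alternatives and SUC2 under 9. The summed level of the 6 phloem markers was 60.6 to 63.0 times the 75th percentile in ambient air and 54.5 to 56.2 times under NO. PP2-A1, whose probe was the brightest of the 6, weighed most in that sum. Its own fall was larger than that of the sum, so the sum does not show a fall shared by these markers. All 6 mesophyll markers rose, with a summed level of 632 to 679 times the 75th percentile in ambient air and of 1110 to 1400 times under NO. With quantile normalization 4 of 6 rose, and RCA and GLDP1 had changes of -0.15 and -0.16. With scaling to the array median and with cyclic loess 5 of 6 rose, and GLDP1 kept its call under 6 of 16 alternatives. Of 7 xylem and procambium markers 6 were tested and rose, with a summed level of 7 to 7.65 times the 75th percentile in ambient air and of 12.9 to 14.8 times under NO. Of 5 guard cell markers 1 rose and 4 fell (3 fell with cyclic loess and with the authors' values). Their summed level was 10.8 to 11.2 times the 75th percentile in ambient air and 13.8 to 15.1 times under NO. That sum rose through GASA9 alone, which had a change of 0.93. MYB60, KAT1, SLAC1 and FAMA had changes of -0.33, -0.19, -0.55 and -0.67, and KAT1 kept its call under 5 of 16 alternatives. All 6 flower markers were well above background on all 6 arrays, 3 rose and 0 fell. Under 4 other scalings 1 or 2 rose and 1 or 2 fell. None of 6 seed markers was well above background on any array. Of 7 genes taken as root markers 3 were tested, where PYK10 and MYB36 rose (0.94 and 0.60). GL2, which is not a gene of roots alone, fell by 0.61. MYB36 did not pass with normexp (-0.03) or with quantile normalization (0.43). COBL9 was well above background on 1 ambient and 2 NO arrays and was not tested. EXPA7, CASP1 and PLT1 were not well above background on any array. The part of these shifts in the changes of the 8 genes was not tested.

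Whether members of a family changed unequally was asked within each array, as the change between groups in the log2 difference between a pair of their probes. With 3 arrays against 3, the two-sided exact permutation test cannot give a p below 0.1, and each of the 7 pairs gave that value (0.1 after Benjamini-Hochberg adjustment over the 7 pairs), so no pair can pass a threshold of 0.05. Each difference is given relative to its mean over the ambient arrays, since its own size and sign depend on the probes. For ASN2 minus ASN3 it was -0.13, -0.07 and 0.19 in ambient air and 2.22, 1.95 and 2.23 under NO, a change of 2.13. The NO arrays thus stood apart from the ambient arrays by far more than either group varied. For ASPGB1 minus ASPGA1 it was 0.26, -0.20 and -0.06 in ambient air and -2.97, -2.84 and -2.87 under NO, a change of -2.89.

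For the pairs with ASN1, whose ambient signals were not well above background, the change was also taken with those signals set to the lowest one that counted as well above background. With that floor it was 3.12 for ASN1 minus ASN3 and 0.99 for ASN1 minus ASN2, beside measured values of 3.50 and 1.36. With normexp background correction these values were 1.72 and -0.06, so whether ASN1 and ASN2 rose unequally depended on the background correction. Among the glutamate dehydrogenase genes the change was 1.19 for GDH1 minus GDH3, 0.90 for GDH2 minus GDH3 and 0.29 for GDH1 minus GDH2. GDH2 minus GDH3 varied little within a group, from -0.02 to 0.01 around its ambient mean in ambient air and from 0.89 to 0.91 under NO.

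**Figure D4:**
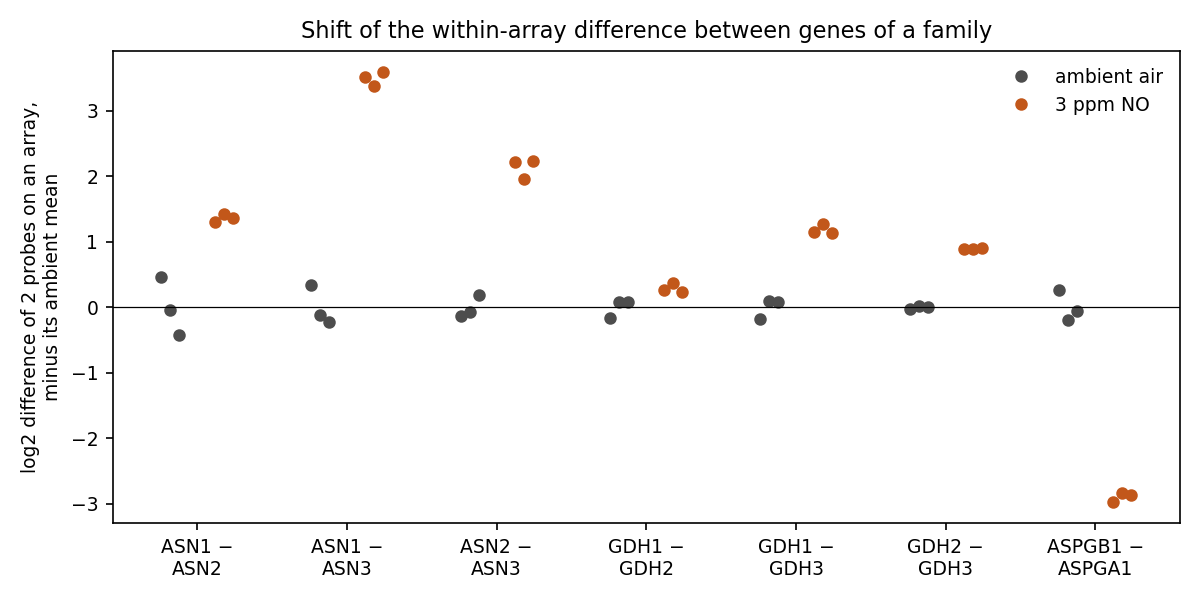
Log2 difference between the probes of each of 7 pairs of related genes, minus its mean over the ambient arrays, 1 point per array, for ambient air and for 3 ppm NO. In all 7 pairs the 3 ambient points and the 3 NO points do not overlap, which is the same fact as the p of 0.1 in the exact permutation test. Pairs within the synthetase and dehydrogenase families share genes, so they are not separate findings. Among single genes, 66.8% did not overlap, and the share among other gene pairs was not counted. Points of the pairs with ASN1 use its measured ambient signals, which were not well above background, and the change of ASN1 minus ASN2 turns to -0.06 with normexp.

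The genes whose reactions supply or use the same compounds were counted by the same test. For comparison with each list, 25.8% of all genes tested rose and 32.4% fell, with a median log2 change of -0.05. Of 5 aspartate aminotransferase genes, which make the aspartate that asparagine synthetase uses, 2 rose, 0 fell and 3 did not pass, with a median log2 change of 0.07. The genes that rose were ASP4, for a cytosolic form (0.74 ± 0.07 SE, limma adjusted p = 0.000184), and ASP1, for the mitochondrial form (0.45 ± 0.05 SE). Changes of ASP2, for the main cytosolic form, and ASP3, for the peroxisomal form, were -0.11 and 0.07 and did not pass, although ASP2 passed as lower with scaling to the array median.

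Of 9 glutamine synthetase and glutamate synthase genes, which make the glutamine and glutamate that feed these enzymes, 3 rose and 4 fell (median -0.09). GLN1;4 fell by 1.42 and GLN1;5 by 0.96 on the log2 scale, both for cytosolic glutamine synthetases. GLU2, for a ferredoxin-dependent glutamate synthase, fell by 0.63, while GLN2, for the plastid glutamine synthetase, rose by 0.58.

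Glutamate that is not deaminated can enter the GABA shunt or proline synthesis, and 10 of 12 genes of these routes were tested. Of these 5 rose, 1 fell and 4 did not pass, with a median of 0.19, and GAD3 and GAD5 were not well above background. ALDH5F1, for succinic semialdehyde dehydrogenase, rose by 1.26, P5CS1, for the first step of proline synthesis, by 1.12, and GAD2, for a glutamate decarboxylase, by 0.64. PRODH1, for proline dehydrogenase, which starts the return of proline to glutamate, fell by 1.59 on the log2 scale. Without NO array 1, 2 of these genes fell in place of 1.

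The 2-oxoglutarate made by glutamate dehydrogenase is also a product of isocitrate dehydrogenases. Of 7 such genes 5 were tested, of which 1 rose and 4 did not pass (median -0.06). The cytosolic, NADP-dependent cICDH rose by 0.40, and IDH2, IDH5 and IDH6, for mitochondrial subunits, had changes of -0.18, -0.06 and -0.09. IDH2 passed as lower without ambient array 1, with normexp and with scaling to the array median.

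Aspartate is also the precursor of lysine, threonine and methionine. Of 10 genes of that branch 4 rose, 3 fell and 3 did not pass (median 0.17). The aspartate kinase gene AK3 rose by 1.26, and AK-HSDH1, for the bifunctional kinase and homoserine dehydrogenase, by 0.60. DHDPS2, for the first step of the lysine branch, fell by 0.89 on the log2 scale.

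Asparagine can be used by transamination as well as by hydrolysis. AGT1, for the peroxisomal serine:glyoxylate aminotransferase, which also accepts asparagine, rose by 0.29 ± 0.08 (SE, limma adjusted p = 0.0161), but fell by 0.29 with quantile normalization, so its direction depends on the scaling. It did not pass without NO array 1 or without NO array 3 (limma adjusted p = 0.0552 and 0.0548). Nor did it pass with cyclic loess or with source-name numbers as a block (limma adjusted p = 0.168 and 0.166). The change of the omega-amidase gene was 0.14 (limma adjusted p = 0.108). That gene passed as higher with normexp, with cyclic loess and without NO array 3. Of 9 amino acid transporter genes (8 permeases and LHT1) 8 were tested, 2 rose and 4 fell (median -0.16). AAP7 and AAP2 rose by 0.52 and 0.51, and AAP1 and AAP4 fell by 0.38 and 0.26. AAP2 was at 0.16 and did not pass with quantile normalization (limma adjusted p = 0.055). When arrays that share a number in their source names were treated as a block, 1 of these genes fell in place of 4, and AAP4 did not pass (limma adjusted p = 0.0661).

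ASN1 is itself a dark-inducible gene, so other genes known for induction by darkness or low energy were counted. Of 11 such genes 10 were tested, 7 rose, 2 fell and 1 did not pass, with a median of 0.41. Among all genes tested, 25.8% rose and 32.4% fell, with a median of -0.05. The 7 that rose became 5 with the mean of a gene's probes. They became 6 with scaling to the array median, with the block of shared source-name numbers, and without ambient array 1 or 2. SEN1 (also DIN1) rose by 2.18 ± 0.07 (SE), DRM2, a dormancy-associated gene, by 1.78 ± 0.05 and TPS8, for a trehalose phosphate synthase-like protein, by 0.89. DIN2, for a beta-glucosidase, fell by 1.92 ± 0.10 on the log2 scale. SnRK1 kinase and bZIP factors of groups C and S1 are known regulators of ASN1 in low energy. Of 11 such genes 7 were measured, 1 rose, 4 fell and 2 did not pass (median -0.20), while bZIP1, bZIP2, bZIP11 and bZIP53 were not analysed here. bZIP63 rose by 0.71, and KIN10 and KIN11, for the catalytic subunits of SnRK1, fell by 0.33 and 0.30. The 4 that fell became 2 without ambient array 1 and 2 without NO array 1, and 1 with the block of shared source-name numbers, where KIN10 did not pass (limma adjusted p = 0.0997). The change of bZIP10 was -0.17 (adjusted p = 0.0227), and it did not pass under 7 of 16 alternatives.

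**Figure D5:**
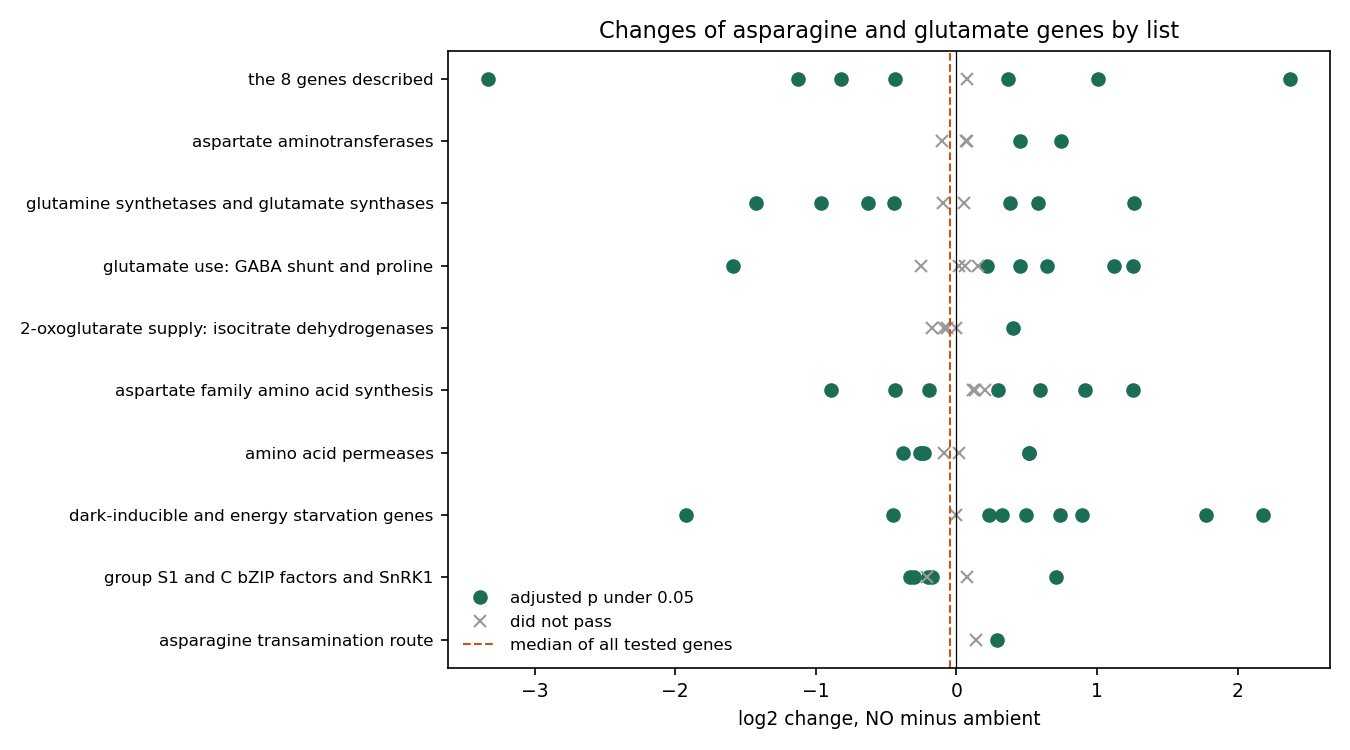
Log2 change (NO minus ambient) of the 8 genes and of each tested gene in the 9 pathway lists, 1 row per list. Green circles passed the threshold of 0.05 in limma, grey crosses did not, and the dashed line is the median of all genes tested, -0.05. The dark-inducible list spans -1.92 to 2.18, and the 8 genes span -3.33 to 2.37.

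For each of the 8 genes, the pair of genes with a symbol whose centred log2 values over the 6 arrays came closest was found among 8344 genes, the measure being the root mean square difference. The 6 arrays hold a single contrast, so a gene with a difference of like size lies close by this measure. Closest to ASN1 were PAP25, a purple acid phosphatase gene, at 0.125 and BAM5, a beta-amylase gene, at 0.126. These distances use ambient signals of ASN1 that were not well above background. PAP25 too was well above background on 0 of 3 ambient arrays, and its log2 change went from 2.46 to 0.35 with normexp (limma adjusted p = 0.0536). Closest to ASPGB1 were TT7 and LDOX, for enzymes of flavonoid and anthocyanin synthesis, at 0.114 and 0.168. The distances of ASN1 and ASPGB1 were the widest among the 8 genes.

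ASN2 lay closest to ESE3 (0.0557) and TAC1 (0.062), and ASN3 to DAA1 (0.0376) and Rap2.6L (0.0625). ASPGA1 lay closest to HSP60, a chaperonin gene, at 0.0238 and to SPX4, a phosphate signalling gene, at 0.027. GDH1 lay closest to AFP3 (0.0558) and CRK42 (0.056), GDH2 to RPS2 and IQD2 (0.0207 each), and GDH3 to FBH3 (0.0334) and CM1, a chorismate mutase gene, at 0.0364.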

How the data were processed

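Spot intensities were read from the deposited scanner files, where the processed signal is the one that Agilent Feature Extraction corrected for background (10.7.3.1 per the file headers, 10.5 per the submitters' processing notes). The authors' own log2 values, deposited as a matrix for all arrays, correlated at 0.9999 or more with the values used here after centring each probe on its median. Medians of its columns were 0.0322, 0.0414 and -0.0171 (ambient) and 0.0213, -0.0686 and -0.0324 (NO). How the authors reached that scale and centring is not given in the sources used here. Flags for outlier, well-above-background and saturated spots, which are other values, were taken as deposited.

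Here log2 processed signals were shifted by the 75th percentile of each array, outlier spots (5 to 18 an array) were dropped, and the spots of each probe were averaged. Of 43603 probes, 34285 matched a locus in a RefSeq table (assembly TAIR10.1) by transcript accession, and 9318 did not. A gene was represented by its brightest probe and tested if at least 1 group had it well above background throughout. A probe with several spots counted as well above background on an array only if all of them did. The comparison used lmFit and eBayes (limma 3.58.1, R 4.3.3), which was tested on simulated data. The precision rests on 3 arrays per group. Normexp used the median spot signal, the mean not being among the columns used.

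Named were the 8 genes, up to 4 tested genes of smallest adjusted p per pathway list, both transamination genes and 2 closest profiles per gene, and 1 gene under this rule is not reported here. Members and lists were chosen with earlier results of these data known. The 16 alternatives covered background correction, normalization, the authors' values, dim-probe filters, gene summary, replicate blocks and each array left out. No sequence or coordinate is printed.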

Additional observations from a re-analysis of the deposited data

How the results depend on the processing

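All 8 genes kept their direction or, for GDH2, their side of the threshold under the alternatives run, 127 comparisons in all. ASN1 gave no value where a probe had to be well above background on all 6 arrays, which left 2 genes higher and 4 lower in place of 3 and 4. The log2 change of ASN1 ranged from 0.71 (normexp) to 2.51, ASPGB1 from -3.40 to -3.25, ASN2 from 0.76 to 1.11, ASN3 from -1.22 to -1.02, ASPGA1 from -0.51 to -0.40, GDH3 from -0.89 to -0.70 and GDH1 from 0.28 to 0.41. GDH2 ranged from -0.19 to 0.12 and did not pass in any of these 16 alternatives (limma adjusted p 0.113 to 0.98). With each array left out in turn, the 8 genes gave 3 higher and 4 lower each time.

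With normexp, the change in the difference of ASN1 minus ASN2 turned to -0.0565, ASN1 minus ASN3 was 1.72, ASN2 minus ASN3 1.78, GDH1 minus GDH3 0.97 and GDH2 minus GDH3 0.698. With the mean of a gene's probes, ASN1 minus ASN2 was 0.832, ASN1 minus ASN3 2.96, GDH1 minus GDH2 0.548 and GDH2 minus GDH3 0.636. AGT1 turned to -0.285 with quantile normalization (adjusted p = 0.00331). The cause of these shifts was not tested.

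Arrays of the same title number did not deviate together (r = -0.0795, -0.0395 and 0.0453 over 18602 genes), and by source name, where the NO arrays are 2 to 4, the shared numbers gave r = 0.0198 and -0.118. With the title numbers as a replicate block, 4560 genes rose and 5506 fell, against 4806 and 6033 without it. With the source-name numbers as the block, which leaves 4 arrays in pairs, 3445 rose and 3696 fell. All 7 calls among the 8 genes held under both blocks, GDH1 with an adjusted p of 0.0492 in limma, but at the level of single probes GDH1 did not pass (0.0571). Low signal limits ASN1, whose ambient signals were not well above background.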
